A study of Rhodotorula toruloides with 2 samples.

Results

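Oxidoreductases that act on alcohols, aldehydes, ketones and unactivated carbon were examined in Rhodotorula toruloides (formerly Rhodosporidium toruloides), a red basidiomycete yeast that stores lipid, as 47 of the 1402 genes in a table of differing genes that the authors deposited. The members were found by text: a gene was taken when its KEGG or BLAST description named an alcohol or aldehyde dehydrogenase, an aldo-keto reductase, a short-chain dehydrogenase, an oxidoreductase, a cytochrome P450, a quinone reductase, a monooxygenase, a dioxygenase, an acyl-carrier-protein reductase or a D-amino acid oxidase. Of 50 genes that matched, 3 were left out because their text also named a mitochondrial protein, a sterol enzyme or a glutathione enzyme. The rule itself uses no expression value, but it was set with earlier results of these data known. Every gene in the table had also already passed the authors' thresholds, so the counts below describe listed genes only.

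The 2 libraries came from wild-type cells of strain AS 2.1389 grown in stirred-tank chemostats, continuous cultures kept at steady volume, 1 labelled inorganic phosphate (Pi)-limited and 1 labelled Pi-replete. Nothing beyond the Pi supply is labelled as different between them, and the labels do not give the composition of the medium. Each condition is 1 library of total RNA, so no difference has a replicate check and none was tested. The library totals were 5892590 counts for the Pi-limited-labelled library and 5641377 for the Pi-replete-labelled library.

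One fact bears on every direction given here. The 5 listed genes described as phosphate transporters or alkaline phosphatase, which fungi are known to induce when Pi is short, were all lower in the Pi-limited-labelled library, by 34.1- to 275-fold. The submitters' description of that library also carries the word "control". Whether the labels were exchanged was not tested, and every direction below would turn if they were. The libraries are called by their labels throughout, no library was moved, and with 1 library per condition no value can be given without either of them.

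Dehydrogenases and reductases of these families pass hydride between a substrate and NAD(H) or NADP(H), and yeasts use them to interconvert alcohols, aldehydes, ketones and acids and to detoxify reactive carbonyls. Oxygenases instead insert oxygen from O2 into a substrate: P450s do so with a heme iron, flavin monooxygenases with FAD, and many dioxygenases with a non-heme iron. Several of these families are large in basidiomycetes, and for most single genes named here the substrate is not known. The names used are best-hit descriptions and not characterised activities.

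In number, the oxidoreductases divided between the libraries as the table did. Of the 47 members, 27 were higher and 20 were lower in the Pi-limited-labelled library (57.4% higher), and among all listed genes 58.3% were higher. The median log2 ratio, taken as the Pi-limited-labelled library over the Pi-replete-labelled library, was 1.10 for the members and also 1.10 for all listed genes. Since no gene under 2-fold is listed, these medians largely restate the shares that were higher. Within the families the directions were less even: all 4 alcohol dehydrogenases were higher and all 5 dioxygenases lower in the Pi-limited-labelled library, while short-chain enzymes, monooxygenases, aldehyde dehydrogenases and aldo-keto reductases went both ways. The authors listed 17.6% of the 7970 genes they tested. How many unlisted oxidoreductases they tested is not known, so no share of the family can be given.

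**Figure D1:**
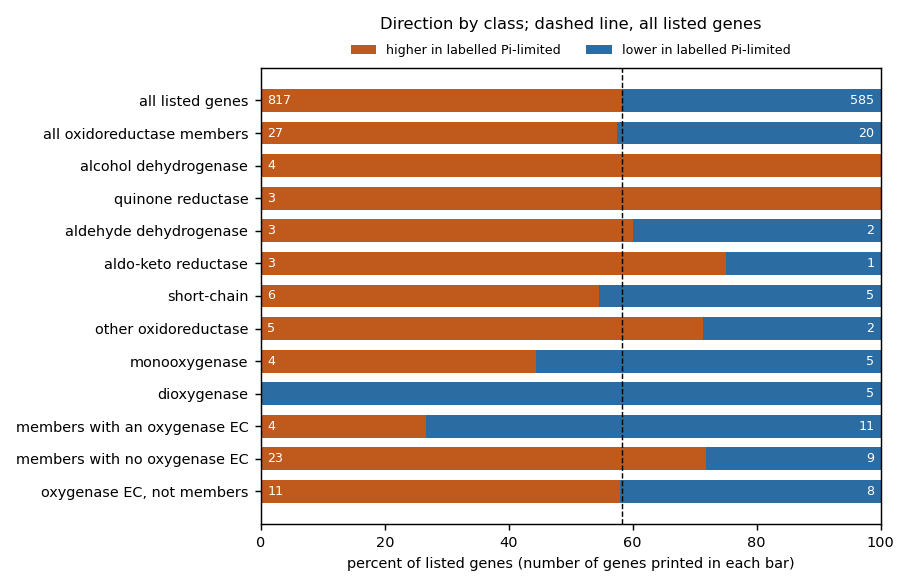
Percent of listed genes that were higher (orange) or lower (blue) in the Pi-limited-labelled library, by class, with the number of genes printed in each bar and a dashed line at the 58.3% of all listed genes. The alcohol dehydrogenase bar (4 genes) is wholly orange and the dioxygenase bar (5 genes) wholly blue, and 3 genes that match more than 1 class are counted in each.

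The differences were often large. A difference of at least 4-fold was seen for 25 of the 47 members (53.2%), against 33.8% of all listed genes. Of these, 11 were higher and 14 lower in the Pi-limited-labelled library, where 14.1% and 19.8% of all listed genes were that far higher and lower. At least 16-fold separated the libraries for 6 members, 2 higher and 4 lower, against 7.49% of all listed genes. Rare transcripts carried most of them. Of the 17 members with fewer than 100 counts in their richer library, 15 differed by at least 4-fold (88.2%), against 50% of the listed genes that rare. Of the 30 members with at least 100 counts, 10 did (33.3%), against 28.4% of the listed genes with that many. Counting error was wide for the rarest, and 7 members had fewer than 50 counts.

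**Figure D2:**
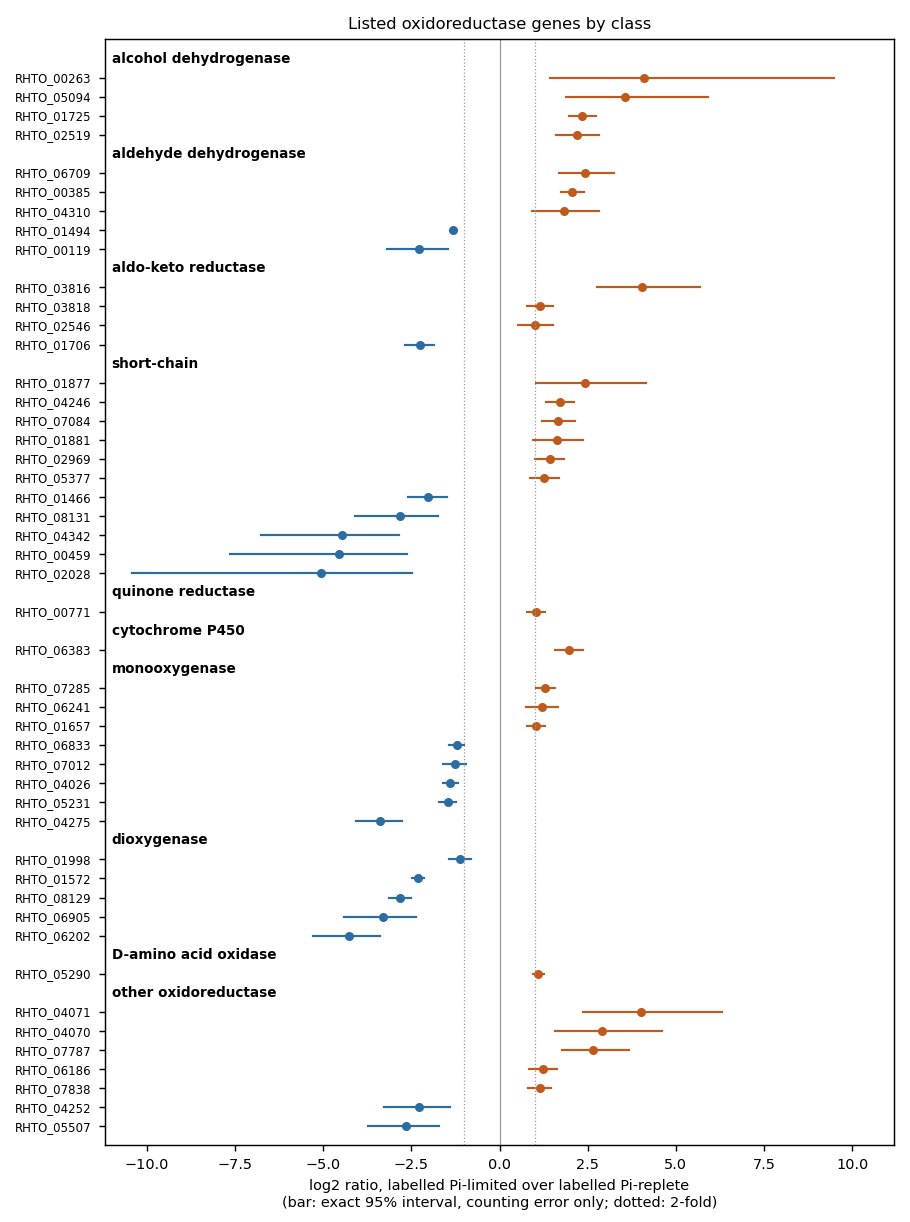
Log2 ratio of each of the 47 members (labelled Pi-limited over labelled Pi-replete, points) with its exact 95% interval (bars, counting error only), grouped by class, with dotted lines at 2-fold. All 4 alcohol dehydrogenases lie right of 2-fold and all 5 dioxygenases lie left of it, and the widest bars belong to genes with 1 to 3 counts in 1 library.

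Alcohol dehydrogenases, which interconvert alcohols with aldehydes or ketones, were higher in the Pi-limited-labelled library in 4 of 4 cases, against 58.3% of all listed genes. Their median log2 ratio was 2.95. Only RHTO_00263, a rare transcript, is placed in this class by both its KEGG and its BLAST text. The gene with most counts, RHTO_01725, described by KEGG as a propanol-preferring alcohol dehydrogenase, had 351 counts (60.7 RPKM, reads scaled by coding length and library total) in the Pi-limited-labelled library and 66 counts (11.9 RPKM) in the Pi-replete-labelled library. That is a 5.09-fold difference (95% interval 3.90 to 6.73). RHTO_02519, which carries both the propanol-preferring and a quinone reductase description, had 139 counts in the Pi-limited-labelled library and 29 in the Pi-replete-labelled library (4.59-fold, 3.06 to 7.10).

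The other alcohol dehydrogenases were rare transcripts. RHTO_05094, of the zinc-containing superfamily and described by KEGG as a quinone reductase or a trans-acting enoyl reductase, had 37 counts in the Pi-limited-labelled library and 3 in the Pi-replete-labelled library (11.8-fold, 3.74 to 59.9). The iron-containing enzyme RHTO_00263 had 18 counts in the Pi-limited-labelled library and 1 in the Pi-replete-labelled library, a ratio of 17.2 with an interval of 2.72 to 718. Both intervals lie above 2-fold, but neither sets the size of the difference closely.

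Quinone reductases, which reduce quinones with NADPH, belong to the same medium-chain superfamily as the zinc-containing alcohol dehydrogenases. They were higher in the Pi-limited-labelled library in 3 of 3 cases, against 58.3% of all listed genes. Of those 3, 2 are the alcohol dehydrogenases RHTO_02519 and RHTO_05094. The gene with the quinone reductase description alone, RHTO_00771, had 399 counts (66.6 RPKM) in the Pi-limited-labelled library and 187 counts (32.6 RPKM) in the Pi-replete-labelled library. Its 2.04-fold difference (1.71 to 2.44) lay at the edge of the authors' threshold. Its log2 ratio of 1.03 became -0.07 when ratios were centred on the median of the listed genes, which is 1.10. Centring turns every higher gene with a log2 ratio under 1.10, so the turn adds nothing about this gene. The same holds for RHTO_02546 and RHTO_01657 below.

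Genes described as aldehyde dehydrogenases, a name for enzymes that oxidise aldehydes to acids, gave 3 higher and 2 lower in the Pi-limited-labelled library. Of the 5, 4 are described as acting on a semialdehyde. RHTO_01494 is described as the L-aminoadipate-semialdehyde dehydrogenase that fungi use to make lysine, a route in which the reaction runs from acid to semialdehyde. It held more counts than any other member, with 3959 counts (149 RPKM) in the Pi-limited-labelled library and 9381 counts (369 RPKM) in the Pi-replete-labelled library. It was 2.48-fold lower (2.38 to 2.57) in the Pi-limited-labelled library. RHTO_00119 has as its best BLAST hit a succinate-semialdehyde dehydrogenase, an enzyme that feeds 4-aminobutyrate carbon into the citric acid cycle. Its KEGG text names other aldehyde dehydrogenases and not this one. RHTO_00119 was lower as well, with 15 counts in the Pi-limited-labelled library and 70 in the Pi-replete-labelled library (4.87-fold, 2.76 to 9.17).

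The aldehyde dehydrogenases with the other direction have descriptions that rest on KEGG alone. RHTO_00385, described as a malonate- or methylmalonate-semialdehyde dehydrogenase, an enzyme of valine and pyrimidine breakdown, had 403 counts in the Pi-limited-labelled library and 92 in the Pi-replete-labelled library (4.19-fold, 3.34 to 5.32). RHTO_06709 carries the same KEGG description, but its best BLAST hit is a polyprotein, as mobile elements encode, and its coding length of 4470 bases is over 2 times the 1710 of RHTO_00385. It had 101 counts in the Pi-limited-labelled library and 18 in the Pi-replete-labelled library (5.37-fold, 3.23 to 9.43), and whether it encodes a dehydrogenase was not tested. RHTO_04310, described only as an NAD-dependent aldehyde dehydrogenase, had 48 counts in the Pi-limited-labelled library and 13 in the Pi-replete-labelled library (3.53-fold, 1.89 to 7.11).

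Aldo-keto reductases, which reduce aldehydes and ketones with NADPH, included 3 genes with the same best hit in Rhodotorula glutinis that did not share a direction. RHTO_03816 had 86 counts (7.10 RPKM) in the Pi-limited-labelled library and 5 counts (0.431 RPKM) in the Pi-replete-labelled library, 16.5-fold higher in the Pi-limited-labelled library (6.79 to 52.0). RHTO_03818, which lies 1 gene away from it in the annotation, had 201 counts in the Pi-limited-labelled library and 87 in the Pi-replete-labelled library (2.21-fold, 1.71 to 2.88). RHTO_01706 had the other direction, with 61 counts in the Pi-limited-labelled library and 278 in the Pi-replete-labelled library, 4.76-fold lower (3.60 to 6.39).

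Sequences were not compared, so whether these 3 share reads is not known. The BLAST E-values in the deposited text are far weaker for RHTO_01706 than for the others. The remaining member of the class, RHTO_02546, described as an aflatoxin aldehyde reductase, an enzyme type known for removing toxic dialdehydes, had 112 counts in the Pi-limited-labelled library and 53 in the Pi-replete-labelled library. It lay at the threshold (2.02-fold, 1.45 to 2.86), and its log2 ratio of 1.02 became -0.08 with median centring.

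Short-chain dehydrogenases and genes described as acyl-carrier-protein reductases, a Rossmann-fold family that acts on alcohols, sugars, steroids and fatty acyl intermediates, formed the largest class and gave 6 members higher and 5 lower in the Pi-limited-labelled library. The largest ratios were among the lower ones and rested on few counts. RHTO_04342, a short-chain oxidoreductase, had 3 counts (0.502 RPKM) in the Pi-limited-labelled library and 63 counts (11 RPKM) in the Pi-replete-labelled library, a ratio of 21.9 (7.17 to 109). RHTO_00459, also described as a deoxygluconate dehydrogenase, had 2 counts in the Pi-limited-labelled library and 45 in the Pi-replete-labelled library, a ratio of 23.5 (6.14 to 200).

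RHTO_02028 had the largest ratio of all members, with 1 count in the Pi-limited-labelled library and 32 in the Pi-replete-labelled library, a ratio of 33.4 (5.58 to 1361). These 3 transcripts were each at 1 to 3 counts in the Pi-limited-labelled library. RHTO_08131 had 8 counts in the Pi-limited-labelled library and 54 in the Pi-replete-labelled library (7.05-fold lower, 3.33 to 17.2). RHTO_01466, whose best hit is the ketoreductase Nor-1 that Aspergillus uses in aflatoxin synthesis, was better covered, with 35 counts in the Pi-limited-labelled library and 136 in the Pi-replete-labelled library (4.06-fold lower, 2.78 to 6.07).

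The short-chain genes that were higher in the Pi-limited-labelled library differed by 2.40- to 5.36-fold. RHTO_04246, which is also described as an acylglycerone-phosphate reductase, an enzyme type of ether lipid and phosphatidate synthesis, had 232 counts (52.5 RPKM) in the Pi-limited-labelled library and 68 counts (16.1 RPKM) in the Pi-replete-labelled library, a 3.27-fold difference (2.48 to 4.35). RHTO_02969 carries the same pair of descriptions and had 201 counts in the Pi-limited-labelled library and 72 in the Pi-replete-labelled library (2.67-fold, 2.03 to 3.55). The members RHTO_07084, RHTO_05377 and RHTO_01881 were 3.16-, 2.40- and 3.12-fold higher in the Pi-limited-labelled library. The largest ratio in this direction, 5.36, belonged to RHTO_01877 and rested on 28 counts in the Pi-limited-labelled library and 5 in the Pi-replete-labelled library (2.04 to 17.8).

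Genes described by the word dioxygenase, a name for enzymes that insert both atoms of O2 into their substrates, formed this class. They were lower in the Pi-limited-labelled library in 5 of 5 cases, against 41.7% of all listed genes. Their median log2 ratio was -2.82. Of these 5 genes, 4 stand for a single enzyme type: RHTO_01572, RHTO_08129, RHTO_06905 and RHTO_06202 are all described by KEGG as taurine dioxygenase. Enzymes of this type use 2-oxoglutarate and iron to release sulfite from sulfonates, which lets Escherichia coli and Saccharomyces cerevisiae use sulfonates as a sulfur source. RHTO_01572, with a taurine dioxygenase as best BLAST hit as well, had 353 counts (50 RPKM) in the Pi-limited-labelled library and 1668 counts (247 RPKM) in the Pi-replete-labelled library, 4.94-fold lower in the Pi-limited-labelled library (4.40 to 5.55).

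RHTO_08129 had 98 counts (14.9 RPKM) in the Pi-limited-labelled library and 661 counts (105 RPKM) in the Pi-replete-labelled library (7.05-fold lower, 5.69 to 8.80). RHTO_06905, a sulfonate dioxygenase by its best BLAST hit, had 10 counts in the Pi-limited-labelled library and 95 in the Pi-replete-labelled library (9.92-fold lower, 5.17 to 21.4). RHTO_06202 had 11 counts in the Pi-limited-labelled library and 202 in the Pi-replete-labelled library (19.2-fold lower, 10.5 to 39.0). The genes differ in level by more than 10-fold between themselves in either library, yet each was at least 4-fold lower in the Pi-limited-labelled library, also at the near end of its interval. RHTO_08129, RHTO_06202 and RHTO_01572 also carry an aminopeptidase description in KEGG, and RHTO_08129 and RHTO_06202 have best BLAST hits of no stated function. The shared direction holds for the word dioxygenase only. RHTO_06186, an oxygenase of the 2-oxoglutarate and iron type by its best hit, was 2.35-fold higher in the Pi-limited-labelled library. Listed non-members with an enzyme number of the taurine dioxygenase group went both ways. RHTO_04724, RHTO_06338 and RHTO_00227 were higher (log2 ratios 1.11, 1.25 and 1.34). RHTO_04025, RHTO_00869, RHTO_04134 and RHTO_04578 were lower (-2.87, -1.57, -1.27 and -1.05).

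The fifth dioxygenase acts on another substrate. RHTO_01998, a catechol dioxygenase, which opens the ring of catechol, an intermediate of phenol breakdown, had 120 counts (22.3 RPKM) in the Pi-limited-labelled library and 249 counts (48.2 RPKM) in the Pi-replete-labelled library, 2.17-fold lower (1.74 to 2.72). Enzymes that hydroxylate simple aromatics were listed among the monooxygenases. RHTO_06833, described as a benzoate monooxygenase and matched by BLAST to the benzoate hydroxylase of Rhodotorula minuta, which is known as a P450, had 285 counts in the Pi-limited-labelled library and 633 in the Pi-replete-labelled library (2.32-fold lower, 2.01 to 2.68). RHTO_07012, a phenol monooxygenase, had 121 counts in the Pi-limited-labelled library and 279 in the Pi-replete-labelled library (2.41-fold lower, 1.94 to 3.01).

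A second gene with a phenol monooxygenase description, RHTO_06241, did not follow them. It had 144 counts in the Pi-limited-labelled library and 60 in the Pi-replete-labelled library (2.30-fold higher, 1.69 to 3.16), and its KEGG text also names a nitrilase and a polyketide synthase. A listed gene that is not a member, RHTO_01918, described by KEGG as a salicylate hydroxylase, was also higher. It had 17 counts in the Pi-limited-labelled library and 0 in the Pi-replete-labelled library. These genes were grouped by substrate after their values were seen.

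Monooxygenases as a class gave 4 members higher and 5 lower in the Pi-limited-labelled library. RHTO_04275, a nitronate monooxygenase, which breaks down nitroalkane anions, had the largest ratio, with 23 counts (4.12 RPKM) in the Pi-limited-labelled library and 230 counts (43.0 RPKM) in the Pi-replete-labelled library (10.4-fold lower, 6.79 to 16.8). Of 3 flavin monooxygenases with a cyclohexanone monooxygenase description, an enzyme type that turns ketones into esters or lactones, 2 were lower and 1 was higher. RHTO_05231 had 174 counts in the Pi-limited-labelled library and 463 in the Pi-replete-labelled library (2.78-fold lower, 2.33 to 3.33).

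RHTO_04026 was close to it, with 243 counts in the Pi-limited-labelled library and 609 in the Pi-replete-labelled library (2.62-fold lower, 2.25 to 3.05). RHTO_01657 had 438 counts in the Pi-limited-labelled library and 205 in the Pi-replete-labelled library (2.05-fold higher, 1.73 to 2.43), and its log2 ratio of 1.03 became -0.07 with median centring. The monooxygenase with the highest level in the Pi-limited-labelled library, RHTO_07285, is described as deoxyhypusine monooxygenase, which completes the hypusine residue of a translation factor. It had 398 counts (70.4 RPKM) in the Pi-limited-labelled library and 155 counts (28.6 RPKM) in the Pi-replete-labelled library, 2.46-fold higher in the Pi-limited-labelled library (2.04 to 2.98).

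Only 1 member carries the words cytochrome P450. RHTO_06383, also described by KEGG as a leukotriene monooxygenase, had 274 counts (26.0 RPKM) in the Pi-limited-labelled library and 67 counts (6.63 RPKM) in the Pi-replete-labelled library, 3.92-fold higher in the Pi-limited-labelled library (2.99 to 5.19). RHTO_04252 has as its best hit an O-methylsterigmatocystin oxidoreductase, which is a P450 of aflatoxin synthesis in Aspergillus, and had the other direction, with 13 counts in the Pi-limited-labelled library and 61 in the Pi-replete-labelled library (4.90-fold lower, 2.66 to 9.72). Counting the benzoate hydroxylase RHTO_06833, genes of P450 type by this background were higher in 1 case and lower in 2.

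**Figure D3:**
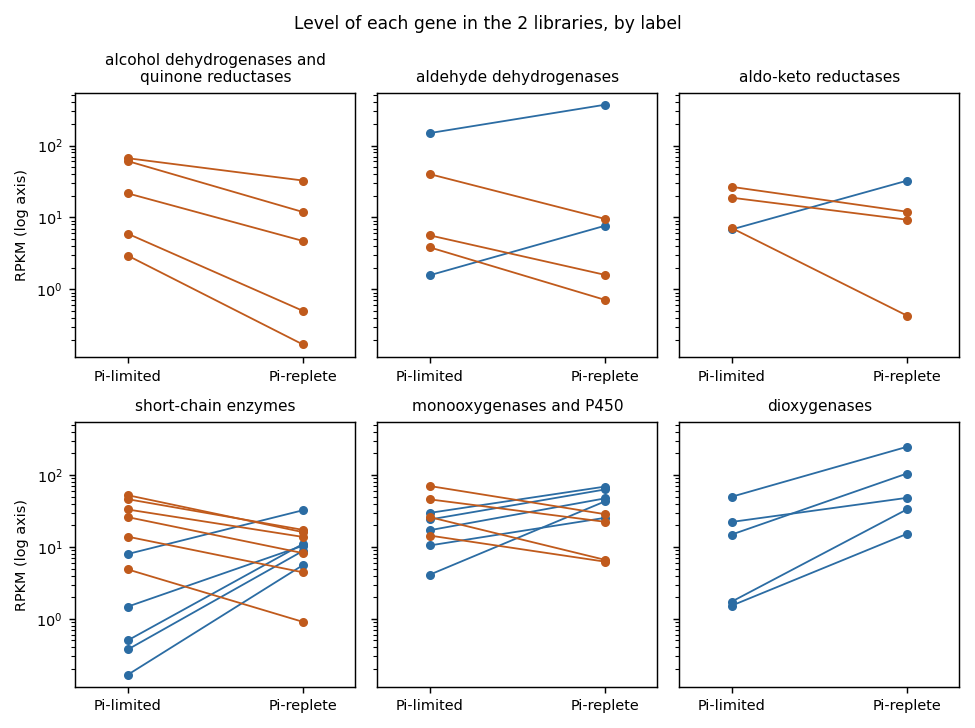
RPKM (log axis) of each gene in the Pi-limited-labelled library (left) and the Pi-replete-labelled library (right), in 6 panels by primary class; orange lines are genes higher and blue lines genes lower in the Pi-limited-labelled library. All lines of the alcohol dehydrogenase and quinone reductase panel are orange, all 5 dioxygenase lines are blue, and the other panels hold lines of both colours.

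Members described as oxidoreductases with no narrower class were higher in the Pi-limited-labelled library in 5 of 7 cases (71.4%), against 58.3% of all listed genes. RHTO_04071 and RHTO_04070 lie next to each other in the annotation and share their best hit, an oxidoreductase of the black yeast Exophiala dermatitidis. RHTO_04071 had 50 counts in the Pi-limited-labelled library and 3 in the Pi-replete-labelled library, a ratio of 16 (5.15 to 80), and RHTO_04070 had 39 counts in the Pi-limited-labelled library and 5 in the Pi-replete-labelled library, a ratio of 7.47 (2.94 to 24.3). Adjacent copies may share reads, and whether these do is not known. RHTO_07787, a Rossmann-fold oxidoreductase, had 79 counts in the Pi-limited-labelled library and 12 in the Pi-replete-labelled library (6.30-fold higher, 3.41 to 12.7).

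RHTO_06186, an oxygenase of the 2-oxoglutarate and iron type by its best hit, was 2.35-fold higher (1.79 to 3.10), and RHTO_07838, also described as a dehydrosphinganine reductase of sphingolipid synthesis, was 2.21-fold higher (1.77 to 2.77) in the Pi-limited-labelled library. RHTO_05507, of the glucose-methanol-choline (GMC) family of flavin enzymes and described as a choline dehydrogenase, had 11 counts in the Pi-limited-labelled library and 66 in the Pi-replete-labelled library (6.27-fold lower, 3.29 to 13.2). D-amino acid oxidase, a peroxisomal FAD enzyme long studied in this yeast, was represented by RHTO_05290, on its best hit alone. That gene has a coding length of 672 bases and no KEGG description, and whether it encodes a whole enzyme was not tested. It had the highest level of any member in the Pi-limited-labelled library, with 1148 counts (289.9 RPKM) there and 511 counts (135 RPKM) in the Pi-replete-labelled library, a 2.15-fold difference (1.94 to 2.39).

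Split by whether the deposited KEGG text holds an enzyme (EC) number of the groups that incorporate O2, on single or paired donors, a grouping made after the values were seen, the members divided unevenly. Of 15 members with such a number, 4 were higher and 11 lower in the Pi-limited-labelled library (73.3% lower, median log2 ratio -1.39). Of the 32 members without one, 23 were higher and 9 lower (28.1% lower, median log2 ratio 1.34). Of all listed genes, 41.7% were lower. Among members with at least 100 counts in their richer library, the split was 4 higher and 9 lower with an oxygenase number. Without one it was 14 higher and 3 lower, and 56.9% of all listed genes with that many counts were higher. Among members that differed by at least 4-fold it was 0 higher and 6 lower with an oxygenase number, and 11 higher and 8 lower without one (57.9% higher). At that limit lower genes were the more common over the whole list, with 197 genes higher and 277 lower. Leaving out the taurine dioxygenase genes gave 4 higher and 7 lower with an oxygenase number. A further 19 listed genes with such a number, which are not members, gave 11 higher and 8 lower. Among them, RHTO_01918 has 0 counts in the Pi-replete-labelled library. Not all of the 19 need be oxygenases. RHTO_05378, RHTO_01483 and RHTO_05048, which were lower, and RHTO_04646, RHTO_06814 and RHTO_04512, which were higher, also carry transporter descriptions.

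**Figure D4:**
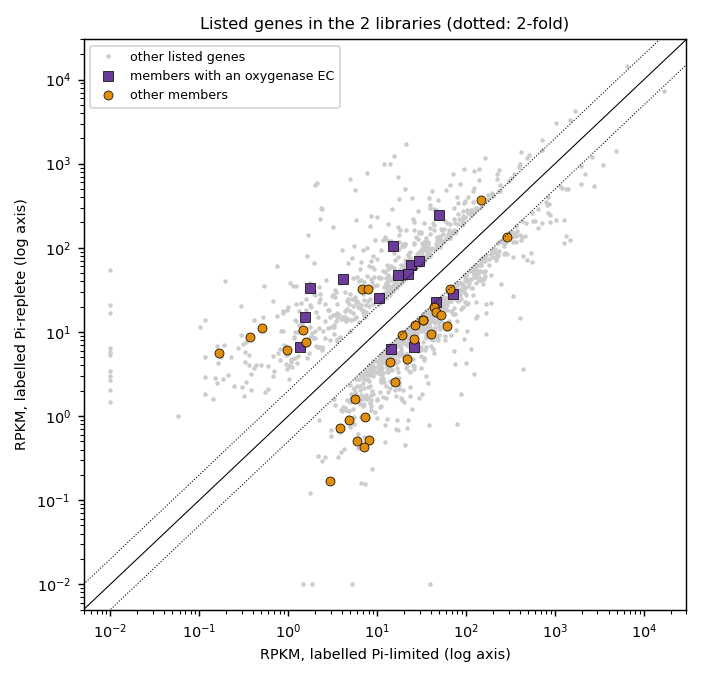
RPKM of every listed gene in the Pi-limited-labelled library (horizontal, log axis) and the Pi-replete-labelled library (vertical, log axis), with members that carry an oxygenase enzyme number as purple squares and other members as orange circles; dotted lines mark 2-fold, and genes with 0 counts sit at the deposited value of 0.01. Of 15 squares, 11 lie above the diagonal, and of 32 circles, 23 lie below it.

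The summed level of the class depended on a few genes. All 47 members took 1927 CPM (counts per library, scaled to its total) in the Pi-limited-labelled library and 3072 in the Pi-replete-labelled library. Without RHTO_01494 they took 1255 CPM in the Pi-limited-labelled library and 1409 in the Pi-replete-labelled library. Without RHTO_01494 and the taurine dioxygenase gene RHTO_01572 the order turned, with 1195 CPM in the Pi-limited-labelled library and 1114 in the Pi-replete-labelled library. The median member had 14.9 RPKM in the Pi-limited-labelled library and 11.9 in the Pi-replete-labelled library, the median listed gene had 21.3 RPKM in the Pi-limited-labelled library and 17.3 in the Pi-replete-labelled library, and 4 members reached 100 RPKM in either library.

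Members that lie close together in the annotation shared a direction in the 4 pairs found with up to 3 genes between them, and so did 58% of the 1025 pairs of listed genes at that distance. These were the short-chain genes RHTO_01877 and RHTO_01881, the aldo-keto reductases RHTO_03816 and RHTO_03818, the oxidoreductases RHTO_04070 and RHTO_04071, and the dioxygenase RHTO_08129 with the short-chain gene RHTO_08131. The last pair had the same log2 ratio of -2.82. Listed genes directly beside a member shared its direction in 9 of 17 neighbour relations (52.9%), and over all listed genes in 65.5% of them. The flavin monooxygenase RHTO_04026 lies next to RHTO_04025, a gene described as a gibberellin oxidase or clavaminate synthase-like protein, and both were lower. RHTO_05377 lies next to a gene described as a multidrug transporter (RHTO_05378) that was 49.5-fold lower, while RHTO_05377 itself was higher in the Pi-limited-labelled library.

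Genes that may supply or protect these enzymes were matched by text, and are not members. On the list searched for NADPH, electron and acetyl supply, 1 of 6 listed genes was higher and 5 were lower in the Pi-limited-labelled library. Of all listed genes, 41.7% were lower. Among these 6 were malic enzyme (RHTO_03795, 3.62-fold lower) and an NADP-type isocitrate dehydrogenase (RHTO_04315, 2.16-fold lower), both sources of NADPH. The others of the 6 were lactate dehydrogenases of the cytochrome type by KEGG, and their text names neither NADPH nor acetyl units. Of these, RHTO_02425 was 5.39-fold lower and RHTO_04947 2.73-fold higher. The direction of the list is therefore no measure of NADPH supply as a whole. The words searched did not match the listed cytochrome-b5 reductases RHTO_06231, RHTO_04872 and RHTO_04128. These were 2.01-, 3.01- and 2.70-fold higher in the Pi-limited-labelled library, so the list is incomplete. The antioxidant and conjugation list had 8 higher and 6 lower (57.1% higher, against 58.3% of all listed genes). Its glutathione S-transferases, which attach glutathione to reactive compounds, went both ways, with RHTO_00450 5.30-fold higher and RHTO_00481 4.10-fold lower in the Pi-limited-labelled library. Of 63 other listed genes described as a dehydrogenase, reductase or oxidase, 33 were higher and 30 lower (52.4% higher). Of these 63, 9 are also in a list given above or among the genes left out.

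The genes left out by the text rule were a dioxygenase of carnitine synthesis (RHTO_04134, 2.42-fold lower), a P450 of the sterol demethylase type (RHTO_00164, 2.39-fold higher) and a glutathione-dependent formaldehyde and alcohol dehydrogenase (RHTO_04424, 2.48-fold higher in the Pi-limited-labelled library).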

How the data were processed

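RNA of 1 library per condition was compared. Per the labels' protocols, 40 ml of chemostat culture was chilled on ice and RNA was extracted with RNAiso Plus. The submitters' processing notes name Cufflinks and DESeq but assign them no role. The aligner, genome build and strand setting were not given in the sources used here. Per the file headers, the deposited table holds the raw count and the RPKM of each gene in each library, their log2 ratio (RPKM over RPKM), and a p-value and FDR per gene. The deposited log2 ratio has the Pi-replete-labelled library on top, and its sign was turned here. Its values show filters at 2-fold (smallest absolute log2 ratio 1.0003) and at an FDR of at most 9.75e-04. The authors' p-value has no replicates behind it and was not used as a test.

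Library totals were recovered from count, length and RPKM, which gave 1 total per library. Folds compare counts over these totals, with exact 95% Clopper-Pearson intervals from the conditional binomial. No molecular identifiers are mentioned, so the intervals hold counting error alone. Interval code was tested on simulated data. Scripts used Python 3.11.15, numpy 2.4.6, scipy 1.17.1 and pandas 2.3.3. Of the coding lengths, 99.4% were multiples of 3. The RefSeq gene table of strain NP11 (RHOziaDV1.0) held all 1402 identifiers and was used only for gene order. Reads of near-identical or overlapping genes cannot be told apart.

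The members, classes and lists were chosen with earlier results of these data known. Named genes were, per class, the 4 members of at least 50 counts whose log2 ratio was farthest from 0 and the member with the highest mean RPKM, the 10 largest ratios of any class, and every member of a class of up to 4. The rule gave 34 genes. The others are named to account for every member, after their values were seen. Alternatives were other scalings, count, fold and FDR limits, and the text used by the rule.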

Additional observations from a re-analysis of the deposited data

How the results depend on the processing

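Centring on the median of the listed genes moved every log2 ratio by -1.10 and equal totals over the listed genes by 0.31. Since genes under 2-fold are not listed, either can only remove members of 1 direction at 2-fold. Of the members, 27 were higher and 20 lower in the Pi-limited-labelled library. Centring left 10 higher and 20 lower, at least 100 counts left 18 and 12, at least 4-fold left 11 and 14, and an FDR of at most 1e-10 left 16 higher. The BLAST text alone gave 15 and 11, and leaving out the 31 members whose BLAST and KEGG texts share no class gave 8 and 8. The median log2 ratio became 0.01 with centring and 1.41 with equal totals. With centring, RHTO_00771 and RHTO_01657 turned to -0.07 and RHTO_02546 to -0.08, as every higher gene with a log2 ratio under 1.10 does by construction.

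Among aldehyde dehydrogenases, centring left 1 higher, equal totals and at least 100 counts each left 1 lower, and shared texts left 0 higher. Short-chain enzymes gave 1 higher with centring, 1 lower with at least 100 counts, and 2 higher and 1 lower with shared texts. Monooxygenases gave 0 higher with centring, 3 lower with equal totals, and 2 higher and 1 lower with shared texts. Of the 5 lower dioxygenases, equal totals and at least 100 counts each left 4, and shared texts left 3. Of the 4 higher alcohol dehydrogenases, shared texts left 1. Other oxidoreductases gave 3 higher with centring, 2 higher and 0 lower with at least 100 counts, and 0 and 0 with shared texts.

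By oxygenase number, a split chosen after seeing the data, members with one gave 0 higher and 11 lower with centring, 0 higher and 6 lower at 4-fold, 2 and 4 with shared texts, and 7 lower without the taurine dioxygenase genes. Members without one gave 10 higher and 9 lower with centring, 14 and 3 with at least 100 counts, 11 and 8 at 4-fold, and 6 and 4 with shared texts. Fewer genes enter under each limit by construction. The division of 4-fold members at 100 counts and the share over all listed pairs were also added after seeing the data. No replicate could be left out, with 1 library per condition. No paired analysis was possible because each condition has 1 library and no result comes from a test. Genes with 1 to 5 counts in a library have folds known only within wide intervals.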

Other observations

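Since 4 dioxygenase members are described as enzymes that free sulfur from sulfonates, listed genes of sulfur uptake and sulfur amino acid metabolism were collected after the values were seen. The words searched did not name methionine, so the list is incomplete. Of the 11 genes found that are not members, 2 were higher and 9 lower in the Pi-limited-labelled library, with a median log2 ratio of -1.67. Over all listed genes 41.7% were lower and the median was 1.10. A cystathionine beta-lyase (RHTO_05589) had 121 counts in the Pi-limited-labelled library and 2535 in the Pi-replete-labelled library. A cystathionine gamma-lyase (RHTO_01498), which makes cysteine from cystathionine, had 287 counts in the Pi-limited-labelled library and 1613 in the Pi-replete-labelled library (5.87-fold lower, 5.17 to 6.68). A sulfate permease (RHTO_03549) had 89 counts in the Pi-limited-labelled library and 272 in the Pi-replete-labelled library (3.19-fold lower, 2.50 to 4.10), and the reductase of activated sulfate (RHTO_06542) was 2.15-fold lower (1.95 to 2.37). The 2 with the other direction were an arylsulfatase (RHTO_02907, 3.48-fold higher, 1.75 to 7.52) and a gene described as an adenylyltransferase (RHTO_01782, 2.03-fold higher, 1.65 to 2.50). The sources used here do not give the sulfur supply of the cultures.

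Beside the lysine enzyme RHTO_01494, 2 listed genes that are not members matched words for its pathway. Saccharopine dehydrogenase (RHTO_03579), which forms lysine in the last step of the fungal route, had 2845 counts in the Pi-limited-labelled library and 6622 in the Pi-replete-labelled library, 2.43-fold lower (2.33 to 2.54), beside 2.48-fold for RHTO_01494. RHTO_03324, whose KEGG text names alpha-aminoadipic semialdehyde synthase and also a saccharopine enzyme, had 24 counts in the Pi-limited-labelled library and 371 in the Pi-replete-labelled library. Whether it acts in lysine synthesis was not tested. No other listed gene matched the words searched for this pathway, a search made after the values were seen.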
